A study of Mus musculus with 10 samples.

Results

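The 3′UTR is the stretch of an mRNA between the stop codon and the poly(A) tail, and it holds both the signal for cleavage and polyadenylation and most of the sites that microRNAs bind. Some genes carry an unusually short 3′UTR, and these include many small, highly transcribed housekeeping genes, such as those for ribosomal proteins and for subunits of the respiratory chain. Short 3′UTR segments were analysed here in the gastrocnemius (GAS), a fast-twitch muscle of the lower leg, of diet-induced obese (DIO) mice. They were selected on 2 properties of the count table, namely that the segment was the only one listed for its gene and was under 500 bp long, and that it held at least 50 counts summed over the 10 libraries. Of 52423 segments in the table, 855 met the rule, out of 3153 short single-segment ones at any count, and 853 of their genes are protein-coding while 2 are immunoglobulin constant genes. Longer single-segment genes, whose only segment has the full 500 bp, served as the nearest comparison, and 2144 of these held at least 50 counts.

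All mice were male C57BL/6J animals by the labels (C57BL/6JBomTac by the study's methods), made obese on a high-fat diet and 30 weeks old. The ASO group received an anti-miR-22 antisense oligonucleotide (ASO), a mixmer of LNA and DNA bases on a phosphorothioate backbone that binds the microRNA, at 10 mg/kg under the skin once a week for 14 weeks, and the CTRL group received 0.9% saline on the same schedule. There were 5 libraries per group, so both groups carry the diet and its obesity, and no lean or untreated muscle was compared. Nothing in the sources ties the libraries to batches, and the p-values measure the spread between these libraries.

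miR-22 is a microRNA that is abundant in muscle, where it has been tied to muscle growth and metabolism. A microRNA finds its targets mainly by pairing of its bases 2 to 8, the seed, with sites in 3′UTRs, and such pairing commonly lowers the level or the translation of the target. The mature strand is shown with its seed in capitals, taken from RefSeq (GRCm38.p6), followed by the sites of 6 short segments that hold the perfect complement of the seed (GGCAGCT, in capitals) and whose level passed the test described below, the 6 with the largest change. Positions are on GRCm39, and each site is read 5′ to 3′ on the strand of its gene.

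mmu-miR-22-3p: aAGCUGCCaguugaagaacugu
Cdh15, plus strand of chr8:123593963-123593992: agcatggactaGGCAGCTagagggagcact
Cav3, plus strand of chr6:112449682-112449711: gttccttaagaGGCAGCTagcgcaaggctt
Gars1, plus strand of chr6:55056331-55056357: gaacagctGGCAGCTtatgaccatcgt
Micos13, minus strand of chr17:56914648-56914677: ctcactctgagGGCAGCTtccagcattgct
Pet117, plus strand of chr2:144215474-144215503: tgggggatcccGGCAGCTtaggagtgcgtg
Tug1, minus strand of chr11:3598462-3598491: agagcgctggcGGCAGCTccggggtgggga

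The 855 segments were between 3 and 499 bp long, with a median of 258 bp. In 851 of them the segment began directly after the stop codon, and 846 lay in a single exon. In 612 segments (71.6%) the end matched the end of the 3′UTR in the newer GENCODE M39 annotation within 30 bp, while for 236 that annotation gave a longer 3′UTR, by a median of 963.5 bp beyond the segment. A canonical poly(A) signal was sought on the strand of the gene in the last 40 bases, first AATAAA and, where that was missing, ATTAAA. The first was present in 546 segments and the second in 109, together 76.6%, and the hexamer began a median of 24 bases before the segment's end. Of the 500 bp single-segment genes 81.3% held one of them in the last 40 bases, and the distance taken in the same way also had a median of 24 bases. The short segments were slightly richer in G and C, with a median GC content of 45.1% against 42.4%, and belonged to shorter transcripts, with a median of 1741 bases against 3579.5. Their genes had a median of 11 annotated transcripts, against 9.

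The perfect seed match for miR-22 was found in 32 of the 855 short segments (3.74%) and in 104 of the 2144 segments of 500 bp (4.85%). Per length the order was the other way round, with 1.58 matches per 10000 bases in the short segments and 0.979 in the long ones. The site lay 9 bases into the 155 bp segment of Gars1, the glycyl-tRNA synthetase, and 254 bases into the 394 bp segment of Cav3, the muscle form of caveolin.

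Counting on such short windows brought limits that bear on the values below. The segment of Kcna7 has 3 bp and that of Gm58608 8 bp, so nearly all the read pairs counted there reached into neighbouring sequence, and no minimum overlap was named for the counting. A total of 149 segments overlapped an exon of another gene on the opposite strand and 17 an exon on the same strand, and 150 held a stretch with a near-identical copy elsewhere in the genome, often a pseudogene or a repeat. Values for these genes are uncertain, since reads of a partner or copy cannot be told apart here, and 575 segments were free of all of these.

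The level of each segment is given as CPM, its count scaled to a common library size after TMM normalisation, and levels of different genes are compared per 100 bp of segment. In CTRL muscle the median over the 855 segments was 10.7 CPM per 100 bp, with single segments between 0.287 and 16576. By length, the median was 26.5 CPM per 100 bp below 100 bp, 12.5 from 100 to 199 bp, 12.9 from 200 to 299 bp, 8.15 from 300 to 399 bp and 7.03 from 400 to 499 bp, against 4.37 in the 500 bp single-segment genes. The limit of 50 counts holds for any length and so sets a higher floor per 100 bp for shorter segments, and a limit of 100 counts would move the median over all from 10.7 to 15.1. Levels per length are least certain in the shortest segments, where read pairs reach far outside the counted window.

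The 10 highest levels per length were those of the following genes. Acta1, the skeletal muscle actin, stood first with 16576 CPM per 100 bp in CTRL, followed by Tnnc2, the calcium-binding troponin C of fast fibers, with 9517. Pgam2, the muscle phosphoglycerate mutase of glycolysis, reached 3495 CPM per 100 bp on a segment of 33 bp. Tcap, which ties titin into the Z-disc, followed with 2310.1. Next came Kcna7, a potassium channel, with 2152 on its 3 bp, Cox8b, a subunit of cytochrome c oxidase, with 1989, and Actn3, the α-actinin of fast fibers, with 1956. The list ended with Casq1, the calcium store of the sarcoplasmic reticulum, with 1647, Mybpc2, the fast myosin-binding protein C, with 1394, and Myoz1, a Z-disc protein of fast fibers, with 1336. The highest-ranked genes therefore fit the labelled tissue, and 10 of 12 skeletal muscle fiber markers had counts in the table, the other 2, Mylpf and Tnnt3, having none.

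**Figure D1:**
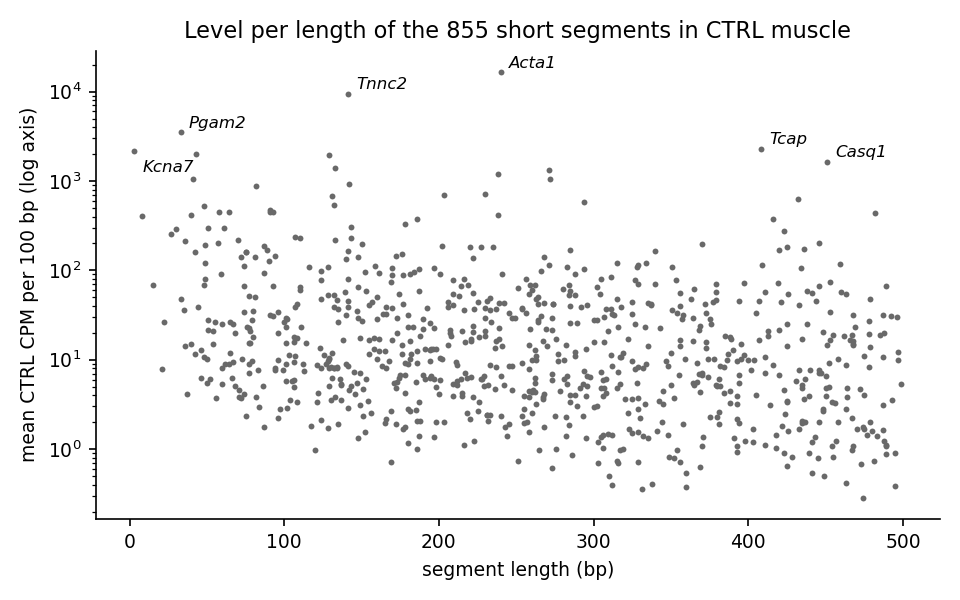
Mean level of each of the 855 short segments in the 5 CTRL libraries, in CPM per 100 bp on a log axis, against segment length in bp. Acta1 stands highest at 16576 CPM per 100 bp, and the lower edge of the cloud falls as segments become longer.

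The rule drew a line at 50 counts and at 500 bp. Just inside the first limit lay 1700056E22Rik, Cdkl1 and Phf11c with 50 counts each, and just outside it C2cd4a, Ccdc57 and Pawr with 49. Just inside the second lay Dhx8 with 499 bp and Noc2l and Nhp2 with 497 bp. On its far side the segments of 500 bp with the most counts were those of Car3, Hspb6 and Selenow.

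CTRL libraries held 1606909 to 2116720 counts and ASO libraries 2239186 to 2632560, so every treated library was deeper. The short segments took up 15.3% to 18.2% of the counts in CTRL and 19.9% to 23.0% with the ASO, and the groups did not overlap. Acta1 alone took 2.88% to 4.98% of the counts in CTRL and 4.89% to 5.91% with the ASO, and without it the other short segments still ran from 11.6% to 13.4% in CTRL and from 14.3% to 17.1% in treated muscle. By length, segments below 100 bp held 0.786% to 1.14% of the counts in CTRL and 1.14% to 1.71% with the ASO, without overlap before rounding. Segments of 100 to 199 bp held 2.89% to 3.99% of the counts in CTRL and 4.48% to 6.30% with the ASO, whereas those of 400 to 499 bp held 3.68% to 4.37% and 3.64% to 4.38%, fully overlapping.

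ASO and CTRL muscle were then compared gene by gene with edgeR's quasi-likelihood test over 7813 genes, and adjusted p-values below come from this fit with Benjamini-Hochberg adjustment at a threshold of 0.05, unless another tool or a left-out library is named. Of the 855 short segments 735 passed edgeR's filter on low counts and 120 were not tested. In 3 tested segments no ASO library reached the count level that the filter asks for (4.59 CPM), so they entered through CTRL alone and had to differ, while none entered through ASO alone. Among the 735 tested segments 234 were higher with the ASO and 33 were lower. That is 31.8% and 4.49%, beside 11.8% and 17.4% of all genes tested, so a larger share of the short segments was called higher, and a smaller share lower, than of all genes. The 5 ASO libraries lay entirely above the 5 CTRL libraries for 151 of the 735 (20.5%) and entirely below for 28 (3.81%), beside 7.97% and 13.4% of all genes. The median log2 fold change was 0.41 over the tested short segments, −0.03 over all genes and 0.18 over the 1837 tested single-segment genes of 500 bp, of which 296 were higher and 84 lower. Genes with 2 or more segments had a median of −0.18, with 390 higher and 1246 lower among 5241 tested. Those genes were counted as sums over all their segments, upstream ones included. Their most distal segments of 500 bp, each fitted on its own, had a median of 0.31, with 509 higher and 94 lower of 2164. A share of higher calls above that of all genes was thus not particular to short segments. Of the 735 segments 574 had a fold change above 1, and 58 of the 234 called higher and 21 of the 33 called lower passed 2-fold. Scaling by total counts in place of TMM lowered the median of all genes by 0.18 and left 160 short segments higher and 44 lower, and the short segments then lay 0.44 above the median of all genes, as they did under TMM. Without the segments that overlap another gene or have a near-identical copy, an alternative chosen after seeing the data, 132 were higher and 22 lower among 486 tested, with a median of 0.39.

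The change depended on how short the segment was. Below 100 bp 51 of 85 tested segments were higher and 4 lower, at a median log2 fold change of 0.81, and 79 of the 85 had a fold change above 1. From 100 to 199 bp 72 of 175 were higher and 3 lower, with a median of 0.54. From 200 to 299 bp there were 56 higher and 6 lower of 187, with a median of 0.40. The class of 300 to 399 bp had 31 higher and 7 lower of 155, with a median of 0.23, and that of 400 to 499 bp had 24 higher and 13 lower of 133, with a median of 0.14, close to the 0.18 of the 500 bp genes. Segments called higher had a median length of 189 bp, those called lower 334 bp, and those past neither side 279 bp. Spearman's rho between fold change and length was −0.37 across the 735 segments, given as a description because all of them share the same 10 libraries.

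**Figure D2:**
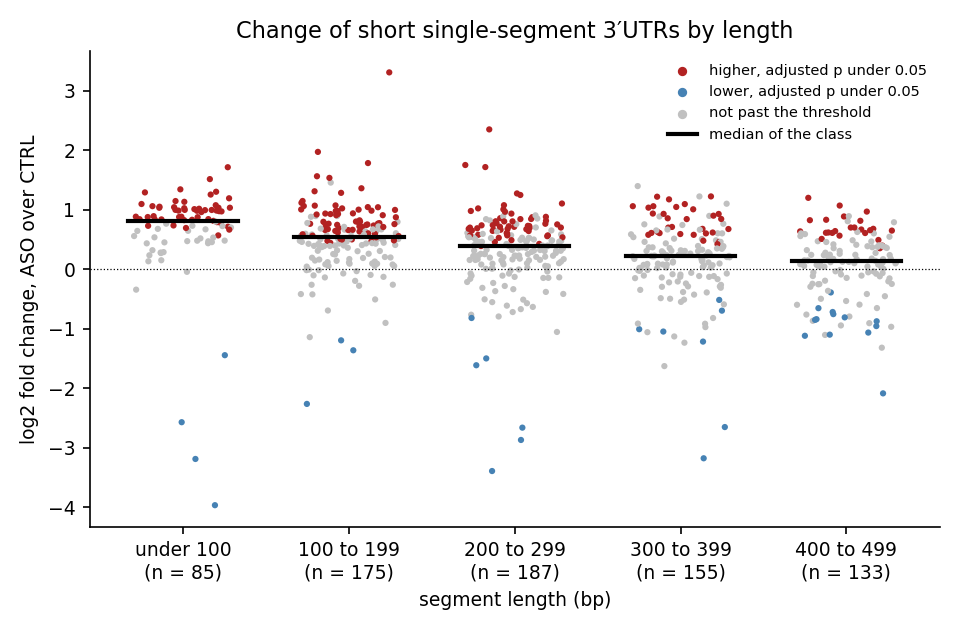
Log2 fold change of ASO over CTRL for the 735 tested short segments, 1 point each, in 5 classes of segment length in bp, with the class medians as black bars and calls at an edgeR adjusted p under 0.05 in color. The medians step down from 0.81 below 100 bp to 0.14 from 400 to 499 bp, and segments called lower occur in every class.

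The shortest class lay above the longest in each subset examined. Among segments that end where the M39 3′UTR ends, the median was 0.79 below 100 bp (61 tested) and 0.12 from 400 to 499 bp (99 tested). Among segments without an overlap or a copy it was 0.77 (47 tested) and 0.12 (90 tested). Restricting to segments with at least 1000 counts gave 0.84 (37 tested) and 0.26 (64 tested), with 0.24 from 300 to 399 bp, so the last step did not hold there. Among segments with a GC content under 41.0% the medians ran from 0.80 in the shortest class to −0.20 in the longest, and among those over 49.2% from 0.75 to 0.42. GC content thus went with a spread of medians among the longer segments and with little among those below 100 bp. The medians ran from 0.79 to 0.24 for transcripts under 1372 bases and from 0.82 to 0.16 for those over 2288 bases, and in the former the classes between were not in order, with 0.36, 0.39 and 0.22. Spearman's rho of fold change with GC content was 0.15 and with transcript length 0.03, each over the 735 segments.

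The gradient was also described library by library, from the same libraries and segments, so this is no separate check. It used the median deviation of the segments from their mean over the 10 libraries, on a log2(CPM + 1) scale. Segments below 100 bp lay between 0.12 and 0.73 above that mean in the 5 ASO libraries and between 0.08 and 0.58 below it in the 5 CTRL libraries. For segments of 400 to 499 bp the 10 values were all between −0.16 and 0.16. The libraries were not alike within a group. ASO replicates 3 and 5 stood highest for the shortest class, with 0.73 and 0.59, and ASO replicate 2 lowest with 0.12. CTRL replicates 3, 4 and 5 stood at −0.56, −0.46 and −0.58, while CTRL replicates 1 and 2 stood at −0.08 and −0.17. Another measure moved with these values, the median log2 ratio of counts on the most distal segment to counts at least 1000 bp upstream, taken over 1570 genes with several segments. It was 1.17 to 1.70 in the ASO libraries and −0.57 to 0.43 in CTRL, highest in ASO replicates 3 and 5 and lowest in CTRL replicates 3, 4 and 5. Since it separated the groups completely, it and the treatment cannot be told apart in the change of the short segments.

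**Figure D3:**
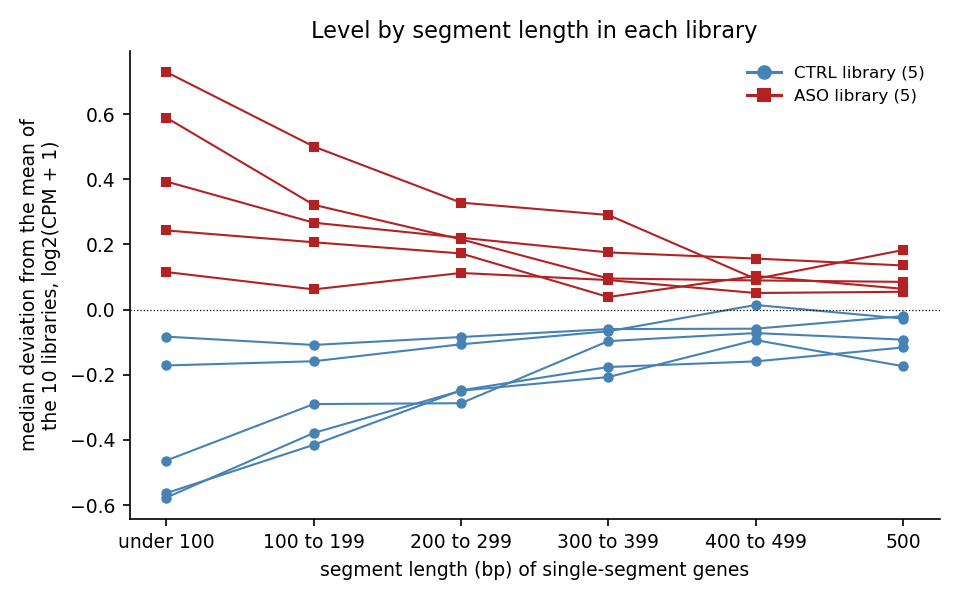
Median deviation from the mean of the 10 libraries, in log2(CPM + 1), of tested single-segment genes by segment length, with 1 line per library and the 500 bp genes at the right. CTRL and ASO lines are farthest apart below 100 bp and lie within 0.18 of 0 at 400 bp and above.

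Genes with several segments allowed the same lengths to be looked at elsewhere, with each segment fitted on its own. Most distal segments of such genes, the last listed along each gene, had a median log2 fold change of 0.40 below 100 bp (9 tested, 3 higher and 2 lower). It was 0.75 at 100 to 199 bp (48 tested, 21 higher and 2 lower) and 0.46 at 200 to 299 bp. At 300 to 399 bp it was 0.45 and at 400 to 499 bp 0.34 (86 tested). Distal segments of 500 bp had a median of 0.31 (2164 tested, 509 higher and 94 lower). Over all segments of these genes, upstream ones included, the median was negative in every length class and lowest in the shortest. It was −0.67 below 100 bp (246 tested, 29 higher and 113 lower) and −0.30 at 400 to 499 bp. At 500 bp it was −0.14 (6202 tested, 790 higher and 1877 lower).

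The decreases were few and large. The lowest fold change was that of Nt5c1a, a cytosolic nucleotidase of muscle that makes adenosine from AMP, whose 68 bp segment had 6.60, 8.39, 5.93, 21.2 and 25.8 CPM in CTRL replicates 1 to 5 and 2.90, 0.425, 0.423, 0.417 and 0 CPM in the ASO libraries. All ASO values were below all CTRL values, but the 5 ASO libraries held only 9 counts in total, against 126. This is 1 of the 3 segments that passed the filter through CTRL alone, so its log2 fold change of −3.97 (SE 0.70) is given as a description without a test.

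Taco1, an activator of the translation of a cytochrome c oxidase subunit in mitochondria, had the most counts of the 10 decreases past 4-fold. On its 311 bp segment (chr11:105964128-105964438, plus strand) CTRL had 107, 80.7, 99.8, 117 and 171 CPM and ASO 11.6, 15.3, 5.92, 16.3 and 14.1 CPM. The groups were far apart, with means of 115 ± 34.1 and 12.6 ± 4.15 CPM (SD over 5 libraries each). The log2 fold change was −3.18 (SE 0.27, edgeR adjusted p = 0.00011). No overlap with another gene was annotated there.

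Kcna7, whose segment is the 3 bases that follow the stop codon (chr7:45059185-45059187, plus strand), had 49.1, 49.4, 48.4, 83.8 and 92.1 CPM in CTRL and 5.79, 11.5, 0.846, 7.51 and 9.43 CPM with the ASO. The M39 annotation gives this gene a 3′UTR of 1891 bases with the stop codon, so the counted window sits at the proximal end of it. The log2 fold change was −3.19 (SE 0.41, edgeR adjusted p = 0.00030). Over the 209 tested segments with a longer M39 3′UTR the median was 0.43, with 66 higher and 15 lower.

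Klhl38, a muscle protein of the kelch family whose level is known to follow muscle wasting, had 91.0, 85.3, 82.5, 112 and 113 CPM in CTRL and 34.8, 45.0, 16.5, 39.7 and 34.9 CPM with the ASO. Its log2 fold change was −1.50 (SE 0.23, edgeR adjusted p = 0.00072), and its segment of 254 bp is also the first part of a longer M39 3′UTR of 4530 bases. Hes1, the repressor downstream of Notch, fell from 78.8 ± 14.3 to 39.1 ± 10.5 CPM, a log2 fold change of −1.01 (SE 0.21, edgeR adjusted p = 0.0037). Its groups did not overlap, and this gene and the next were picked for naming after their values were seen. Nfe2l2, the transcription factor of the antioxidant response, went from 91.9 ± 6.49 to 52.4 ± 22.8 CPM, a log2 fold change of −0.81 (SE 0.24, edgeR adjusted p = 0.025).

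Of the 17 segments that share bases with an exon on the same strand, 15 were tested and 5 were lower, and all 5 belonged to the 10 largest decreases. The 5 were Gm49416 over Ints5, Gm58354 over Slc35a4, Pet117 over Kat14, Gm58608 over Eif5 and Gm66680 over Dyrk1b, with log2 fold changes of −3.39, −2.66, −2.65, −2.57 and −2.26. Gm49416 held 11 counts in the ASO libraries and 105 in CTRL and also passed the filter through CTRL alone, so its call had to be a decrease. The 8 bp segment of Gm58608 had 16.5, 20.5, 41.0, 43.7 and 41.6 CPM in CTRL and 6.28, 8.07, 3.38, 3.34 and 6.13 CPM with the ASO, so the groups were apart there too. Which of the overlapping genes these reads came from cannot be told here. The other 4 called segments of this kind were higher.

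The largest increases among segments with a mean of at least 10 counts over the libraries and no overlap between groups came on short segments of genes with diverse roles. Vars1, the enzyme that loads valine onto its tRNA, had 11.8, 18.2, 16.8, 19.5 and 16.9 CPM in CTRL on its 67 bp (chr17:35235232-35235298, plus strand) and 39.6, 42.5, 61.3, 39.7 and 54.7 CPM with the ASO. It led these increases, with a log2 fold change of 1.52 (SE 0.19, edgeR adjusted p = 0.00026). Ipo13, a carrier of proteins into and out of the nucleus, had 155, 163, 77.1, 113 and 101 CPM in CTRL and 240.5, 274, 392, 244 and 341 CPM with the ASO. Its 75 bp segment gave a log2 fold change of 1.29 (SE 0.22, edgeR adjusted p = 0.0014). The others were Lama5, a laminin chain of basement membranes, Rpl24 and Rpl9-ps6 of ribosomal proteins, Zbtb17, a transcription factor, Ddx59, an RNA helicase, Inha, an inhibin subunit, Lta4h, a leukotriene enzyme, and Cdh15. Their log2 fold changes were 1.36, 1.34, 1.31, 1.30, 1.29, 1.28, 1.26 and 1.23 in that order. Rpl9-ps6 carries the name of a pseudogene but is annotated as protein-coding in M39. Among these increases too the M39 3′UTR was often longer than the segment. It has 1298 bases for Ipo13, 1073 for Zbtb17, 1735 for Ddx59, 2419 for Inha and 2289 for Cdh15, with the stop codon. Lta4h lost its call without ASO replicate 3 or 5, and Rpl9-ps6 and Rpl24 have 10 and 4 near-identical copies. Rpl9-ps6 and Inha passed the filter mainly through the ASO libraries, where they were higher.

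**Figure D4:**
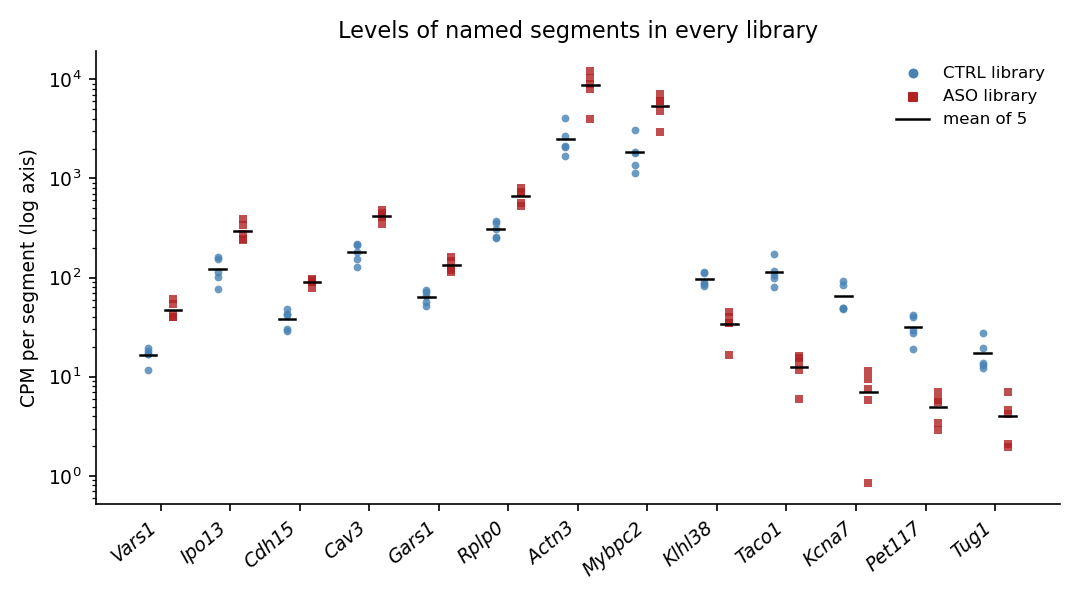
CPM of 13 named segments in each of the 5 CTRL and 5 ASO libraries on a log axis, with the mean of each group as a bar. The groups are apart for 11 of them, while Actn3 and Mybpc2 overlap through ASO replicate 4 and CTRL replicate 2.

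Some larger fold changes came with groups that overlapped and were picked for naming after their values were seen. Mss51, a gene of fast glycolytic fibers tied to mitochondrial metabolism, had 46.2, 29.8, 35.6, 54.3 and 82.6 CPM in CTRL and 75.3, 277, 292, 1143 and 675 CPM with the ASO. Only ASO replicate 1 fell within the CTRL range, and the log2 fold change of 3.31 (SE 0.60, edgeR adjusted p = 0.0018) was the largest increase among all tested short segments. Both immunoglobulin genes, Igkc and Ighg2c, were called higher, with 135 and 32.8 CPM in ASO replicate 1. Igkc had 3.77 to 12.4 CPM in CTRL and 8.02 to 40.1 CPM in the other ASO libraries, and without ASO replicate 1 its log2 fold change went from 2.35 to 1.25 and lost its call (edgeR adjusted p = 0.065). Antibody-producing cells are the known source of these transcripts, and in bulk muscle a change in the number of cells of a type and in RNA per cell cannot be told apart. Over all genes, summed lymphocyte markers ran from 182 to 560.1 CPM in CTRL and from 257 to 1804 CPM with the ASO, with Cd79b, Cd8a, Gzma and Nkg7 among those at 0 counts, and their part in these calls was not tested.

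Segments with a miR-22 seed match were looked at as a group. Of the 24 tested 11 were higher and 2 lower, with a median log2 fold change of 0.60, beside 0.40 over the 711 tested segments without a match, of which 223 were higher and 31 lower. The segments with a match were longer, with a median of 364.5 bp against 258 bp for all those tested, and lay a median of 0.22 above the median of their length class. Among the 500 bp genes the medians were 0.24 with a match (95 tested, 19 higher and 7 lower) and 0.18 without.

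Cdh15, the M-cadherin that joins satellite cells to muscle fibers, had 41.5, 48.0, 30.6, 42.5 and 28.6 CPM in CTRL and 77.7, 90.1, 93.9, 96.9 and 89.6 CPM with the ASO. Every ASO library was above every CTRL library, and the log2 fold change of 1.23 (SE 0.16, edgeR adjusted p = 0.00033) lay 1.00 above the median of its length class. Its site is 212 bases into the 374 bp segment.

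Cav3, the caveolin of the muscle membrane, had 220.2, 214, 129, 180.0 and 153 CPM in CTRL and 408, 347, 414, 445 and 476 CPM with the ASO. The groups were apart, with means of 179 ± 38.9 and 418 ± 48.2 CPM (SD over 5 libraries each), and the log2 fold change of 1.22 (SE 0.17, edgeR adjusted p = 0.00044) lay 0.99 above the median of its class. Gars1 went from 64.3 ± 9.70 to 133 ± 19.9 CPM, a log2 fold change of 1.05 (SE 0.15, edgeR adjusted p = 0.00051). Micos13, a subunit of the complex that holds the cristae of mitochondria in place, went from 113 ± 28.0 to 209 ± 23.6 CPM, a log2 fold change of 0.88 (SE 0.17, edgeR adjusted p = 0.0024). Neither gene's groups overlapped.

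The remaining seed-match segments of the 6 printed above moved the other way. Pet117, an assembly factor of cytochrome c oxidase whose segment overlaps Kat14, had 27.4, 19.1, 29.6, 40.1 and 41.6 CPM in CTRL and 2.90, 5.52, 3.38, 5.84 and 7.07 CPM with the ASO. Its log2 fold change was −2.65 (SE 0.30, edgeR adjusted p = 0.00014). Tug1, best known as a long non-coding RNA and annotated with a coding frame in M39, had 13.2, 12.1, 13.8, 19.5 and 27.5 CPM in CTRL and 1.93, 4.25, 4.65, 2.09 and 7.07 CPM with the ASO, a log2 fold change of −2.09 (SE 0.37, edgeR adjusted p = 0.0018). Tug1 passed the filter mainly through the CTRL libraries, where it was higher. The presence of the heptamer thus went with calls in both directions. None of a short list of reported miR-22 targets had a segment of this kind.

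The median log2 fold change was 0.40 over the 566 tested segments with a poly(A) signal and 0.43 over the 169 without. Of those with a signal 180 were higher and 19 lower, and of those without 54 were higher and 14 lower.

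Many of the short segments belong to the machinery of translation and respiration, and the members of these groups are described by list. The shares to set beside each list are 31.8% higher and 4.49% lower over all 735 tested segments. By length, 60% were higher below 100 bp, 41.1% from 100 to 199 bp and 29.9% from 200 to 299 bp. With so few lower calls among all of them, a short list without one is near the general share. Ribosomal proteins build the cytosolic ribosome, and their mRNAs are among the shortest of the cell. Of 22 cytosolic ribosomal protein segments 21 were tested, 17 were higher and none was lower, at a median log2 fold change of 0.84 on a median length of 58 bp. Set against the median of their length classes they lay 0.07 higher. Those medians include the ribosomal segments themselves, so this is no comparison with the other short segments alone. Rplp0, of the stalk of the large subunit, had 370.2, 358, 252, 255 and 312 CPM in CTRL and 568, 529, 726, 712 and 796 CPM with the ASO. Its groups were apart, with a log2 fold change of 1.11 (SE 0.17, edgeR adjusted p = 0.00072), or 0.71 above its class on a 283 bp segment. Rps29 had 541, 441, 392, 376 and 398 CPM in CTRL and 781, 554, 805, 790.3 and 851 CPM with the ASO, a log2 fold change of 0.81 (SE 0.16, edgeR adjusted p = 0.0026). Rps26 and Rpl4 were called higher as well, with log2 fold changes of 0.98 and 0.72. Of the 21 tested segments 20 have a near-identical copy, so reads of pseudogenes cannot be told apart in this list.

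Translation factors, which start and extend the protein chain, had 13 tested segments, 7 higher and none lower. Their median was 0.48, or 0.17 above the class medians. Eef1g, a subunit of the elongation factor that loads aminoacyl-tRNA, went from 165 ± 20.5 to 345 ± 59.2 CPM on a 377 bp segment, a log2 fold change of 1.06 (SE 0.15, edgeR adjusted p = 0.00053) that lay 0.84 above its class. Eef2, the translocation factor, went from 1543 ± 102 to 2513 ± 526 CPM, a log2 fold change of 0.70 (SE 0.16, edgeR adjusted p = 0.0059). Eif3e and Eif3h, subunits of an initiation complex, were higher by 0.98 and 0.77 on the log2 scale. Mitochondrial ribosomal proteins had 19 tested segments, 7 higher and none lower, with a median of 0.38 that lay 0.12 under the class medians. Mrpl38, Mrpl54, Mrpl37 and Mrpl27 were among the 7, with log2 fold changes of 0.88, 0.74, 0.66 and 0.39, and Mrpl27, with 2938 near-identical copies of its stretch, lost its call without ASO replicate 1 or 5 or CTRL replicate 4 or 5.

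Proteasome subunits, which break down tagged proteins, had 11 tested segments, of which 10 were higher and none lower, with a median log2 fold change of 0.60, or 0.22 above the class medians. Psmb6, a catalytic subunit, had 177, 177, 112, 152 and 149 CPM in CTRL and 304, 237, 443, 254 and 335 CPM with the ASO. The lowest ASO library was above the highest CTRL library, and the log2 fold change was 1.04 (SE 0.19, edgeR adjusted p = 0.0022). Psmd3 of the lid, Psmb7 and Psma4 of the core were higher by 0.60, 0.50 and 0.46, and Psma4 lost its call without CTRL replicate 5, while Psmb7, which lies within an exon of Nek6 on the opposite strand, lost it under 10 of 20 alternatives, among them the fits without ASO replicate 1, 2, 3 or 5 or CTRL replicate 3, 4 or 5. Under scaling by total counts 6 of the 11 were higher.

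Respiratory complex I, the entry point of electrons from NADH, had 11 tested segments, of which 9 were higher and none lower, with a median of 0.78 and a median length of 93 bp, which lay 0.10 above the class medians. Ndufa13 had 588, 508, 315, 385 and 385 CPM in CTRL and 743, 689.5, 1224, 779 and 1036 CPM with the ASO on 41 bp. All ASO values were above the CTRL values, with a log2 fold change of 1.03 (SE 0.21, edgeR adjusted p = 0.0036). Ndufb11, Ndufa8 and Ndufa2 were higher by 0.83, 0.78 and 0.68, and Ndufa2 lost its call without ASO replicate 3 or 5 or CTRL replicate 3, 4 or 5. Complexes II to V had 10 tested segments, 4 higher and none lower, with a median of 0.42 that lay 0.088 under the class medians, near the 0.41 of all short segments. These were Sdhb of succinate dehydrogenase, Uqcrb of complex III, Cox6a2 of cytochrome c oxidase and Atp5f1b of the ATP synthase, with log2 fold changes of 0.83, 0.75, 0.74 and 0.58. The count of 4 fell to 1 without ASO replicate 3 or 5 or CTRL replicate 2, 4 or 5, and to 2 without CTRL replicate 3. Import factors and chaperones of mitochondria had 8 tested segments, of which 4 were higher (Hspd1, Timm44, Micos13 and Immp1l). Their median was 0.47, or 0.30 above the class medians, and the count of 4 fell to 2 without CTRL replicate 4.

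**Figure D5:**
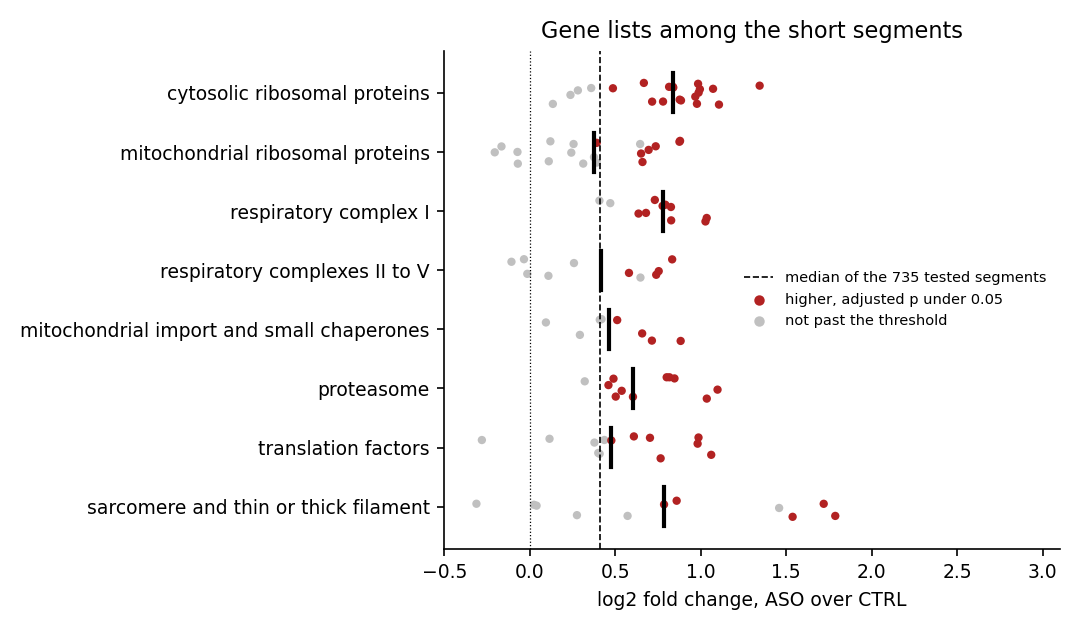
Log2 fold change of ASO over CTRL for the tested short segments of 8 gene lists, 1 point per segment, with list medians as black bars and the median of the 735 tested segments, 0.41, as a dashed line. Most cytosolic ribosomal, complex I and proteasome segments lie to the right of the dashed line. No segment of these lists was called lower, beside 4.49% of all 735 tested.

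The sarcomere list had 11 tested segments, 5 higher and none lower, and the count fell to 3 without CTRL replicate 5. Its median was 0.79, or 0.25 above the class medians. Actn3 had 2074, 4054, 1666, 2123 and 2699 CPM in CTRL and 9074, 8012, 10432, 3973 and 12043 CPM with the ASO. ASO replicate 4 was just under CTRL replicate 2 and the other ASO libraries were well above, with a log2 fold change of 1.79 (SE 0.31, edgeR adjusted p = 0.0015) that lay 1.25 above its length class. Mybpc2 had 1827, 3071, 1139.9, 1367 and 1865 CPM in CTRL and 6103, 4738, 5981, 2968 and 7118 CPM with the ASO. The same libraries made the overlap, and the log2 fold change was 1.54 (SE 0.29, edgeR adjusted p = 0.0025). Myoz1 and Tnnc2 were higher by 0.86 and 0.79, and Tnnc2, whose segment also holds a miR-22 seed match, lost its call without ASO replicate 1 or 5 or CTRL replicate 4 or 5. Myl6b, an essential myosin light chain of slow and embryonic muscle, was the fifth and was named after its values were seen, with 192 CPM in ASO replicate 4 against 28.8 to 38.1 CPM in the other ASO libraries.

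Acta1, the segment with the most counts, had 43854, 49132, 25349.5, 37598 and 42981 CPM in CTRL and 59578, 57623, 54397, 55559 and 68523 CPM with the ASO. The groups did not overlap, but the adjusted p of 0.058 from edgeR missed the threshold at a log2 fold change of 0.57 (SE 0.21). It did pass under 6 alternatives, among them DESeq2 (adjusted p = 0.0045). Tcap and Casq1 had log2 fold changes of 0.28 and 0.12 (edgeR adjusted p = 0.44 and 0.70).

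Among genes of energy supply both tested segments of the glycolysis and glycogen list were higher, 1 of glycolysis (Pgam2) and 1 of gluconeogenesis (Fbp2). Pgam2 had 1297, 1573, 814, 1027 and 1055 CPM in CTRL and 2123, 1809, 3265, 1574 and 2745 CPM with the ASO, a log2 fold change of 1.00 (SE 0.23, edgeR adjusted p = 0.0073), and its 33 bp lie wholly within an exon of Dbnl on the opposite strand. Fbp2, the muscle fructose bisphosphatase of gluconeogenesis, had 82.0 to 159.9 CPM in CTRL and 110.2 to 955 CPM with the ASO. Its log2 fold change of 1.75 (SE 0.45, edgeR adjusted p = 0.012) became 1.12 without ASO replicate 3, which held the highest value, and stayed past the threshold. Of 6 fatty acid oxidation and citric acid cycle segments 3 were higher, namely Idh3g, Acot13 and Pdhb, by 0.77, 0.72 and 0.48, and Acot13 and Pdhb both lost their calls without ASO replicate 3 or 5 or CTRL replicate 2, 3, 4 or 5. The list's median was 0.16, and Fabp3, Fabp4 and, named after its value was seen, Etfa had −0.16, −0.53 and −0.51 without passing. Of the 4 creatine kinase and adenylate carrier segments none passed, with log2 fold changes of 0.51 for Ckmt2 and 0.18 for Vdac3.

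Smaller lists held few segments. Of 4 splicing factor segments 2 were higher, Sf3a3 and Sf3b5, and of 2 RNA polymerase subunits Polr2a was higher while Polr2b had a log2 fold change of 0.05. Sod1, the copper-zinc superoxide dismutase, was the 1 of 3 antioxidant segments called higher, with a log2 fold change of 0.88 (SE 0.16, edgeR adjusted p = 0.0019), and Ubb, a polyubiquitin gene, was higher by 0.50. Of the 4 segments of the calcium handling and excitation list only Myoz1 passed, a Z-disc protein already counted in the sarcomere list. Casq1, Cacng1 and Mrln did not pass, the last 2 with log2 fold changes of 0.56 and 0.48, and Atp6v0d1 of the vacuolar proton pump had 0.36.

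Some markers of cells other than fibers also have a short counted segment. The M39 3′UTR is longer for C1qc, C1qb and Fabp4, with 891, 1594 and 798 bases with the stop codon. Of 4 tested macrophage markers 1 was lower and none higher, with a median of −0.86, and of 3 tested adipocyte markers none was called, with a median of −0.53. The macrophage markers C1qb, C1qa and Cd68 had log2 fold changes of −1.14, −0.57 and 0.26 and did not pass. Of the adipocyte markers Adipoq and Fabp4 had −0.97 and −0.53, and Cidea had 0.08. C1qc, a complement subunit made by macrophages, had 35.4, 47.6, 239, 104 and 94.4 CPM in CTRL and 31.9, 58.2, 27.1, 46.3 and 5.66 CPM with the ASO. Without CTRL replicate 3, the highest, its log2 fold change went from −1.61 to −1.04 and lost its call (edgeR adjusted p = 0.046 and 0.13), as it did under 11 of the 20 alternatives in all. That library also held 8770.0 CPM of Fabp4, the fatty acid carrier of fat cells, against 836 to 1653 CPM in the other CTRL libraries. Over all genes the summed macrophage markers ran from 315 to 1965 CPM in CTRL and from 83.9 to 659 CPM with the ASO, with Adgre1, Aif1, Cd163 and Ctss at 0 counts, and the summed adipocyte markers from 986 to 25960 and from 961 to 8180.3 CPM. Their part in the calls of the short segments was not tested. Without CTRL replicate 3 the tested short segments had a median of 0.44, with 203 higher and 28 lower. The 4 hemoglobin segments Hbb-bs, Hba-a2, Hba-a1 and Hbb-bt had log2 fold changes of −0.42, 0.24, 0.27 and 0.09, none past the threshold. Thbs4 of the fibroblast and matrix list had 0.40 and did not pass, and S100a8 of the neutrophil list, with 3.49 CPM in CTRL and 4.76 CPM with the ASO, was too low to be tested, as was Tnmd.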

How the data were processed

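Bulk RNA-seq of 5 CTRL and 5 ASO GAS samples was analysed. The authors trimmed read pairs of stranded mRNA libraries with fastp, aligned them with STAR to GRCm39 and counted them with featureCounts on Gencode M25 over the last 500 bp of 3′UTRs, and they deposited raw counts per segment. No strand option was named. The 4 other per-sample columns were not used. Segments were mapped to genes with GENCODE M39 and summed per gene. edgeR 4.0.16 in R 4.3.3 (TMM, filter on low counts by group, quasi-likelihood test, Benjamini-Hochberg adjustment over 7813 genes) compared the groups, with DESeq2 1.42.0 and limma-voom (limma 3.58.1) as alternatives. Fold changes are the fitted ones, and errors are SD over 5 libraries or SE of the fit. Sequences were read from GRCm39, and copies (at least 60 bases at 95% identity) were sought with blastn 2.17.0 in the segment and the 60 bases before it. Python 3.11.15 (pandas 2.3.3, numpy 2.4.6, matplotlib 3.10.9, scipy 1.17.1) made tables and figures. The procedure was tested on simulated data.

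The members and lists were chosen with earlier results of these data known. Named were the 10 largest changes each way among called segments with a mean of at least 10 counts over the libraries and no overlap between groups, the 10 highest levels per length, the members at the limits, called segments with a miR-22 match (up to 6) and up to 4 members of each list. Myh7 and Myh4 were to be named too, but each has 2 segments in the table. Other alternatives were RLE, total-count and upper-quartile scaling, no filter or at least 10 counts in every library, a replicate block, each library left out, each segment on its own, libraries drawn down to equal totals, members of at least 100 counts or under 400 bp, and a 60-base window for the poly(A) signal. Library totals of 1606909 to 2632560 counts limit the precision of low segments.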

Additional observations from a re-analysis of the deposited data

Results flagged for a closer look

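Of 204 groups of 5 libraries checked for the 102 named segments, 20 held a library far from the others, where chance flags about 1 in 20. In CTRL replicate 3 this held for markers of fat cells and macrophages, with 8770.0 CPM of Fabp4, 1612 CPM of Adipoq, 215 CPM of C1qa, 209 CPM of C1qb and 57.8 CPM of Cd68. The same library was highest in CTRL for Atp6v0d1 at 152 CPM and for Selenom at 41.0 CPM. Other CTRL libraries that stood apart were replicate 1 for Fabp3 at 6031 CPM, replicate 4 for Noc2l at 77.9 CPM and replicate 5 for Tnmd at 12.9 CPM. With the ASO, replicate 1 was high for Igkc at 135 CPM and, at few counts, for Nt5c1a at 2.90 CPM and Gm49416 at 3.38 CPM, and replicate 2 was low for Rps29 at 554 CPM. ASO replicate 3 was high for Fbp2 at 955 CPM, Acot13 at 418 CPM and Polr2b at 33.4 CPM. ASO replicate 4 was apart for Atp6v0d1 at 163 CPM, Ckb at 69.3 CPM and Tnmd at 10.9 CPM.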

How the results depend on the processing

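The counts of short segments called higher and lower stayed within 1.5 times 234 and 33 under every alternative to the scaling, filter, tool and libraries that was run. Leaving out 1 library gave 189 to 239 higher, 23 to 38 lower and a median log2 fold change of 0.37 to 0.44 over the tested segments, 0.73 to 0.90 below 100 bp and 0.11 to 0.19 from 400 to 499 bp. Under scaling by total counts the median over the tested segments was 0.23 and that of segments of 400 to 499 bp was −0.043, and under upper-quartile scaling the latter was 0.23, while the median of all genes moved by −0.18 and 0.088. Across the 20 alternative fits the shortest class lay 0.54 to 0.72 above the longest. Keeping segments under 400 bp left 20 lower, and leaving out overlaps and copies left 132 higher, since fewer segments were counted. Segments of at least 100 counts had a median of 15.1 CPM per 100 bp in CTRL, and the 60-base window found a poly(A) signal in 79.4%.

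With the replicate number as a block 176 short segments were higher and 27 lower, with a median of 0.41. The number is shared by the labels only, as the correlations of same-numbered libraries were −0.43, 0.06, 0.05, 0.06 and 0.16 and none matched its own number best. Of 97 named segments with a fit none changed direction with a call in any fit. The block left 17 without their call, total counts 14 and leaving out a library between 1 and 13. The mitochondrial ribosomal list had 4 higher under the block and under total counts, complexes II to V 1 under both and the import list 2 under both.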
